A study of Gallus gallus with 6 samples.

Results

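MEPE, SPP1 and PKD2 are 3 neighbouring genes on chicken chromosome 4, and they are described here in the shell gland of layers and non-layers. They were picked by their names in the deposited table of differentially expressed genes (DEGs), and their rows were then taken from the tables of counts and of RPKM values by Ensembl identifier. They are 3 of the 19152 genes counted and of the 13317 genes tested. RNA-seq was carried out on uterine tissue of Hy-line hens, with 1 library per hen. The 3 layers were 35 weeks old and were sampled at 15 to 20 h post-ovulation, with the egg in the uterus at active shell calcification. The 3 non-layers were 35 to 60 weeks old and had no growing follicles in the ovary. Age and laying status thus cannot be told apart for any non-layer older than the layers. Whole uterine tissue was used, so fewer cells of a type and less RNA per cell cannot be told apart either. Because the deposited table names only the genes that the authors had called DEGs on these same libraries, a difference between layers and non-layers was fixed by the choice of the genes, and the tests below are not independent evidence of it. Those calls rested on a minimum fold change and an adjusted p, so that the size of the difference and the spread within a group also entered the choice, and all of these are given as a description.

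The uterus, or shell gland, is the part of the oviduct in which the eggshell is laid down on the egg. Calcite crystals grow there within an organic matrix of secreted proteins, which is known to steer the size and orientation of the crystals. MEPE (matrix extracellular phosphoglycoprotein) and SPP1 (osteopontin) belong to the SIBLING family of secreted, acidic glycoproteins, whose genes lie side by side in birds and mammals and whose proteins are known from bone and tooth. The chicken MEPE protein is known as ovocleidin-116 or OC-116 and is a main protein of the eggshell matrix. Osteopontin is a phosphorylated protein that binds integrins through an RGD sequence, slows crystal growth and is found in bone and eggshell. PKD2 encodes polycystin 2, a cation channel of the TRP family that is located in the endoplasmic reticulum and the primary cilium and that is mutated in a form of human polycystic kidney disease. PKD2 is not a matrix gene, but lies next to the SIBLING genes.

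On Galgal 5.0, the build of the deposited annotation, PKD2 (ENSGALG00000010921) spans chr4:45959958-45974346 and SPP1 (ENSGALG00000010926) spans chr4:45974555-45977750. MEPE (ENSGALG00000010927) spans chr4:45986045-45995778. All 3 are protein-coding genes on the minus strand, so that transcription runs from MEPE through SPP1 towards PKD2. SPP1 and PKD2 are only 208 bases apart, with the end of SPP1 before the start of PKD2, whereas 8294 bases separate MEPE from SPP1. The 3 genes together cover 35821 bases. The gene model of SPP1 has 1 transcript and 1301 bases of exon. PKD2 has 2 transcripts and 3336 bases of exon, and MEPE has 4 transcripts and 4152 bases of exon in a span of 9734 bases. In RefSeq's gene table for the assembly GRCg7b, which was used for names and order only, the order is PRKG2, PKD2, SPP1, MEPE, IBSP, DMP1 and SPARCL1. IBSP (bone sialoprotein) and DMP1 (dentin matrix protein), the other SIBLING genes of this order, were not analysed here, as no row of the count table could be named for them. Whether the long model of MEPE takes in reads of such neighbours was not tested. The row of MEPE carries the mark "confounded" in the deposited table, as do 114 of its 616 rows (18.5%). The meaning of that mark is not given in the sources used here.

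**Figure D1:**
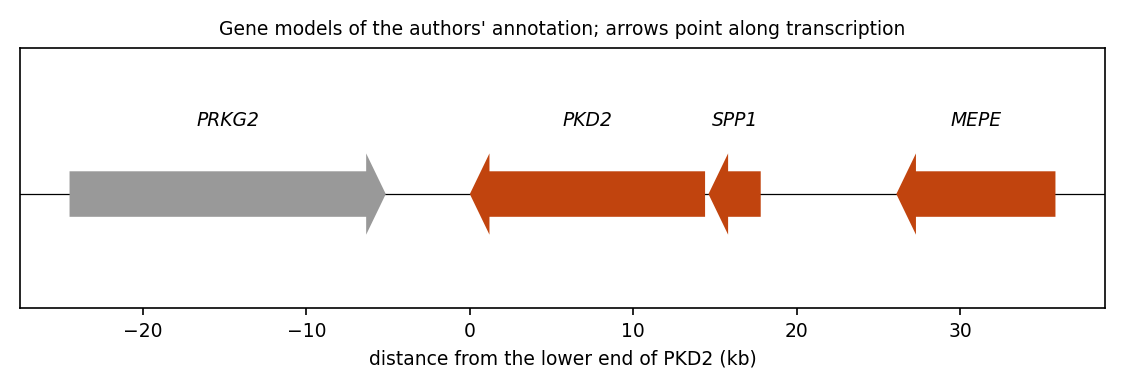
Map of the gene models of MEPE, SPP1 and PKD2 and of the neighbour PRKG2, with distance in kb from the lower end of PKD2 on the x axis and arrows along the direction of transcription. SPP1 and PKD2 are 208 bases apart, and PRKG2 lies on the opposite strand.

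The study also measured OC-116 by qPCR, and the primers are shown because they tie the name OC-116 to the gene listed as MEPE. The RefSeq transcript for which they were designed is listed under MEPE, on chromosome 4, in RefSeq's table.
OC-116 forward primer: cctggacagcaccagatact
OC-116 reverse primer: atggctgcttccaacacctt

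Total gene counts ranged from 14756652 to 20333092 per library, and the 10 genes with the most counts took 15.3% to 16.2% of the counts of the layers and 7.22% to 8.42% of those of the non-layers. Levels are given as counts, as shares of the library's counts with the Wilson 95% interval, and as CPM, that is, counts scaled to a common library size with TMM factors, which correct for such differences in composition. Intervals cover counting error within a library only, not the spread between hens. The reads carry no molecular identifiers, so copies of the same molecule may be counted more than once and the intervals may be too narrow. Groups were compared by edgeR's quasi-likelihood test over all 13317 genes, and a gene was called where it changed by 2-fold or more with a p-value under 0.05 after Benjamini-Hochberg adjustment. This gave 249 genes, or 1.87% of those tested. With 3 hens per group, an exact permutation test of a single value cannot give a two-sided p below 0.1, and the share of counts of each of the 3 genes gave that smallest p.

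MEPE had the most counts of any gene in every layer. It had 786865 counts in layer 1, 668688 in layer 2 and 940227 in layer 3. In non-layers 1, 2 and 3 it had 492, 767 and 238 counts. The layers are thus high and close together, the non-layers are low, and the groups lie far apart. MEPE alone took 4.35% (interval 4.34% to 4.36%), 3.99% (3.983% to 4.002%) and 4.62% (4.61% to 4.63%) of the counts of layers 1, 2 and 3. In the non-layers its share was 0.00333%, 0.00411% and 0.00146%, and the rank of MEPE by counts fell from 1 in each layer to 6079, 5197 and 8886. Of the counts of the 10 most abundant genes, MEPE held 28.5%, 24.6% and 30.02% in the layers. By RPKM, which also accounts for gene length, MEPE ranked 1, 3 and 1 in layers 1, 2 and 3, at 18234, 16718 and 19365 RPKM. The mean expression was 48656 ± 3623 CPM (SD, n = 3) in layers against 26.7 ± 13.0 CPM (SD, n = 3) in non-layers. The lowest layer was 1230-fold above the highest non-layer.

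SPP1 was nearly silent in the non-layers and highly variable among the layers. It had 35824 counts in layer 1, 9670 in layer 2 and 2846 in layer 3. In non-layers 1, 2 and 3 it had 6, 5 and 15 counts, which is 26 counts among 49730698. Layer 1 is high, layer 3 is low among the layers, and still the groups do not overlap. The share of SPP1 was 0.198% (interval 0.1962% to 0.2003%), 0.0577% (0.0566% to 0.0589%) and 0.0140% (0.0135% to 0.0145%) in layers 1, 2 and 3. The spread between these hens is therefore far wider than counting error. By counts, SPP1 ranked 35 in layer 1, 175 in layer 2 and 1273 in layer 3, and between 13001 and 13881 in the non-layers. Layers 1, 2 and 3 had 1524, 444 and 108 RPKM, whereas non-layers 1, 2 and 3 had 0.312, 0.206 and 0.708 RPKM. The mean expression was 985 ± 1019 CPM (SD, n = 3) in layers, an SD as large as the mean, against 0.465 ± 0.281 CPM (SD, n = 3) in non-layers. Layer 1 contributed 74.1% of the SPP1 counts of the layers, yet even layer 3 was 204-fold above the highest non-layer.

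PKD2 was expressed in all 6 hens and differed far less. It had 2974, 3810 and 2802 counts in layers 1, 2 and 3. In non-layers 1, 2 and 3 it had 1162, 1356 and 1917 counts. Layer 2 is the highest library and non-layer 3 the highest of the non-layers, and the groups do not overlap on the CPM scale, although the gap is small. The lowest layer, at 157 CPM, was 1.58-fold above the highest non-layer, at 99.96 CPM. The mean expression was 200 ± 57.3 CPM (SD, n = 3) in layers against 79.2 ± 18.1 CPM (SD, n = 3) in non-layers. The share of PKD2 ranged from 0.0138% to 0.0227% of the counts in layers and from 0.00726% to 0.0118% in non-layers. By counts, PKD2 ranked 1012, 635 and 1288 in layers 1, 2 and 3 and 2950, 3176 and 1846 in non-layers 1, 2 and 3.

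**Figure D2:**
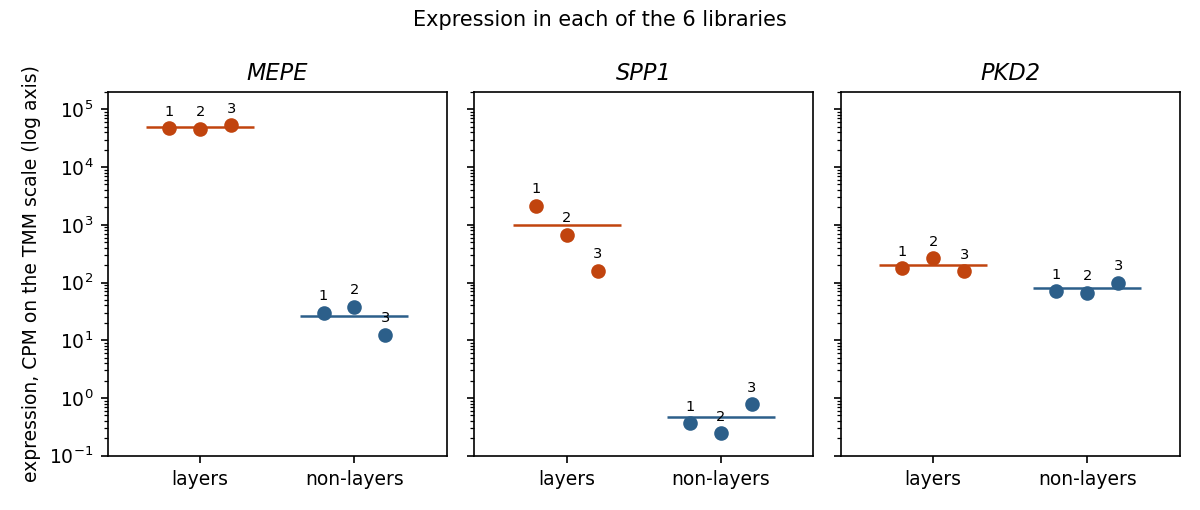
Expression of MEPE, SPP1 and PKD2 in each library, in CPM on the TMM scale on a log axis, with the 3 layers in orange, the 3 non-layers in blue, replicate numbers beside the points and lines at the group means. Layers lie above non-layers for each gene, by the least for PKD2, and the layers are spread most for SPP1, from 160 to 2124 CPM.

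By edgeR, MEPE and SPP1 were called and PKD2 was not, that is, 2 of the 3 genes were up-regulated, against 0.901% of all genes tested called higher in layers and 0.969% called lower. MEPE rose 1819-fold, which is 10.83 on the log2 scale with a standard error of 0.61, and edgeR gave an adjusted p of 0.0037. It had the smallest p-value of all 13317 genes and the second largest rise. SPP1 had the largest rise of all genes tested, 2085-fold or 11.03 on the log2 scale. Its standard error was 1.25, more than that of MEPE, and its adjusted p was 0.024 by edgeR. The rises of MEPE and SPP1 differ by less than the standard error of either. The size of the rise of SPP1 rests on non-layer counts of 5 to 15. On the log2(RPKM + 1) scale, where such low values are damped, limma gave 301-fold. On the log2(RPKM + 0.1) scale, where they are damped less, it gave 894-fold.

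The mean of PKD2 in layers was 2.52-fold that in non-layers, or 1.33 on the log2 scale with a standard error of 0.26, and its adjusted p of 0.051 by edgeR lies just outside the threshold. It would be the 281st gene of the list by p-value and the 401st by the size of the rise. DESeq2's Wald test on the same counts called all 3 genes, against 2.62% called higher of the 16808 genes to which it gave a p-value. That total also holds genes left without an adjusted p, which could not be called. The authors' own calls were made with DESeq2 on these libraries, so the DESeq2 calls given here add no independent evidence. The call of PKD2 thus depends on the test, and it passed edgeR's threshold also with the filter on low counts relaxed (adjusted p = 0.044) and without layer 3 (adjusted p = 0.0497). Every layer lay above every non-layer for all 3 genes, as was the case for 12.1% of all genes tested.

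**Figure D3:**
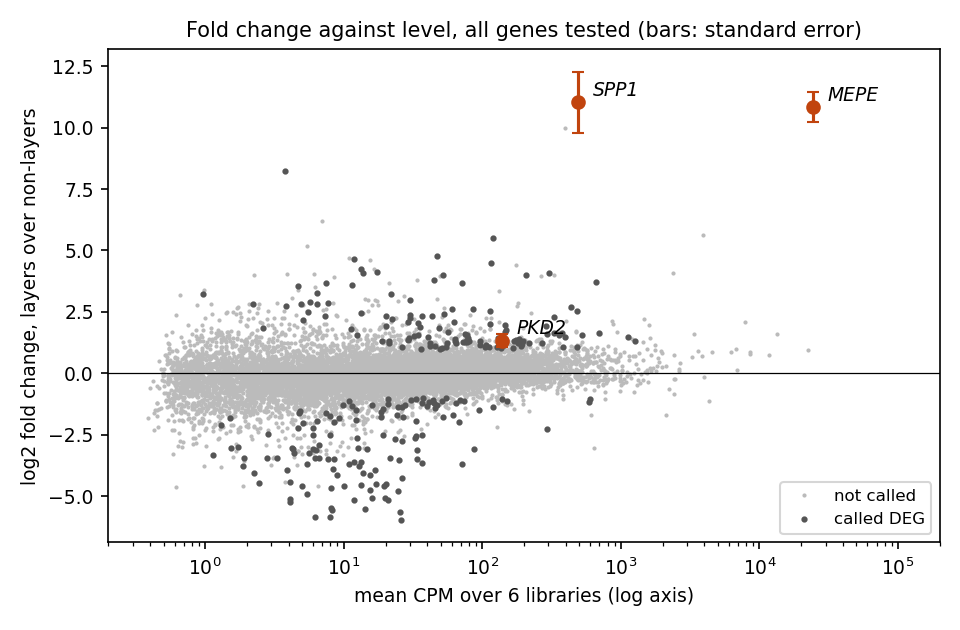
Log2 fold change of layers over non-layers against the mean CPM over the 6 libraries (log axis) for the 13317 genes tested, with called DEGs in dark grey, other genes in light grey and MEPE, SPP1 and PKD2 in orange with bars for the standard error. SPP1 and MEPE have the largest rises, at 11.03 and 10.83, and PKD2, at 1.33, lies among many other genes.

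The calls of the SIBLING genes leaned on single libraries less in their size than in their adjusted p. With each library left out in turn, the log2 fold change of MEPE stayed between 10.49 and 11.17 by edgeR, and MEPE was called in 5 of these 6 comparisons. The exception was the comparison without non-layer 1 (adjusted p = 0.068 by edgeR), in which 0 genes were called and 1704 genes had an unadjusted p under 0.05. SPP1 was called in 3 of the 6 comparisons and was lost without layer 2, non-layer 1 or non-layer 2, with an adjusted p of up to 0.13 by edgeR. Without layer 1, the hen with most SPP1, the rise was 885-fold and SPP1 was called (adjusted p = 0.022 by edgeR), and without non-layer 3, the non-layer with most SPP1, it was 3190-fold. For PKD2, the log2 fold change was between 1.07, without layer 2, and 1.53, without non-layer 3.

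**Figure D4:**
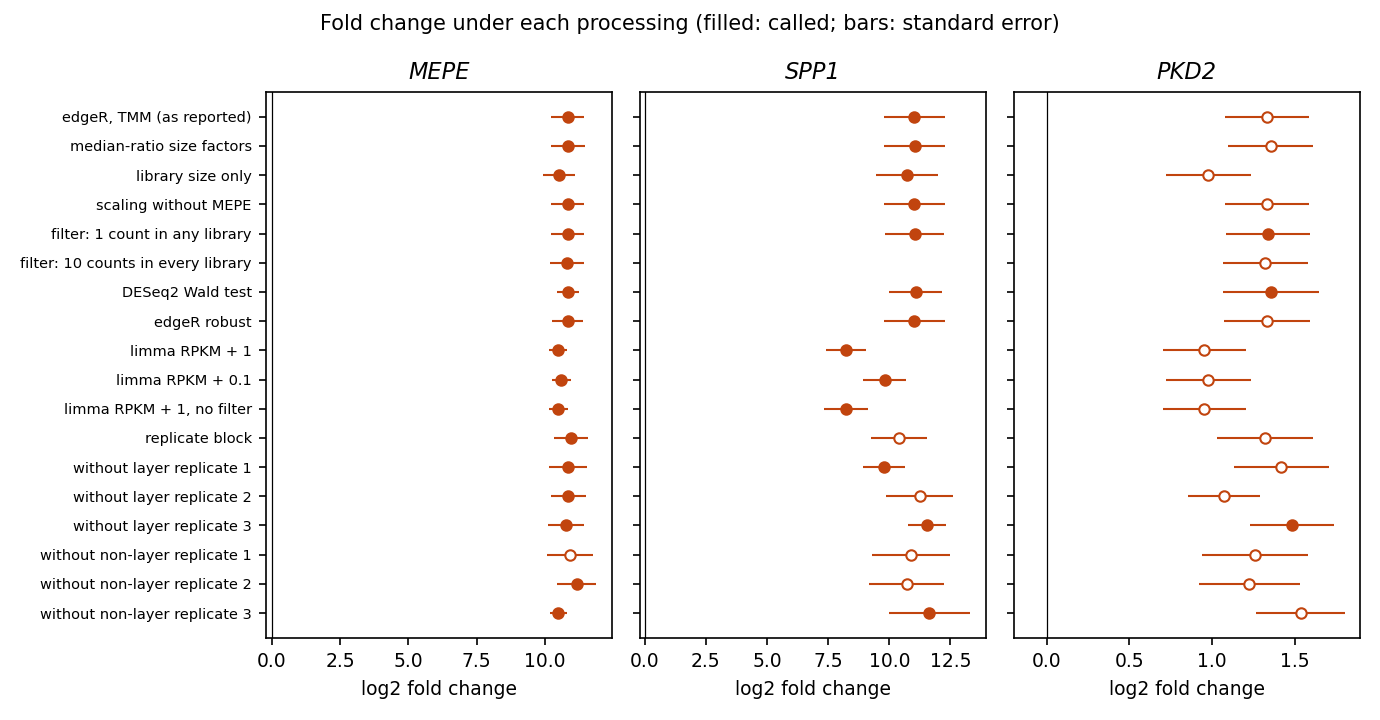
Log2 fold change of layers over non-layers for MEPE, SPP1 and PKD2 under each processing, with filled points where the gene was called and bars for the standard error. MEPE stays between 10.49 and 11.17, SPP1 between 8.23 and 11.64 and PKD2 between 0.95 and 1.53, and SPP1 has no value with a minimum of 10 counts in every library.

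The order of the layers differed between the 3 neighbours. MEPE was highest in layer 3, SPP1 in layer 1 and PKD2 in layer 2, whereas SPP1 and PKD2 were both lowest in layer 3. MEPE was the steadiest, at 46645, 46485 and 52838 CPM in layers 1, 2 and 3, which is a 1.14-fold range. The SD of its log2 CPM over the layers was 0.11, against a median of 0.33 over all genes tested, and 91.4% of these genes had a larger SD. SPP1 was at 2124, 672 and 160 CPM in the same hens, a 13.3-fold range. Its SD on the log2 scale was 1.87, which 1.32% of all genes tested exceeded, and among the 2240 genes with a mean of at least 100 CPM in layers 10 had a larger SD. PKD2 was at 176, 265 and 157 CPM, a 1.68-fold range. Its SD was 0.39, and 41.7% of all genes tested had a larger SD. Among the 2240 genes with a mean of at least 100 CPM in layers, the median SD was 0.28, and 30.8% had a larger SD than PKD2. The hen with most SPP1 (layer 1) was thus at 0.96 of the mean CPM of the layers for MEPE and at 0.88 for PKD2. The hen with least SPP1 (layer 3) was at 1.09 of that mean for MEPE and at 0.79 for PKD2. With 3 hens per group, such orders are given as a description and were not tested. The order of SPP1 among the layers (1, 2, 3 from the highest) was shared by 20.8% of all genes tested, that of MEPE (3, 1, 2) by 18.5% and that of PKD2 (2, 1, 3) by 16.9%. At 46645 and 46485 CPM, layers 1 and 2 were nearly equal for MEPE, so the order of these 2 layers is not firm. The hour of sampling is known here only as 15 to 20 h for the layers as a group. Its part in the spread of SPP1 was not tested.

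Among the non-layers, MEPE was not steady. It was at 30.01, 37.8 and 12.4 CPM in non-layers 1, 2 and 3, a 3.05-fold range with an SD of 0.85 on the log2 scale, which 6.35% of all genes tested exceeded. Non-layer 3 was the lowest for MEPE and the highest for both SPP1 and PKD2. SPP1 was at 0.366, 0.246 and 0.782 CPM in these hens, but counts of 6, 5 and 15 leave wide intervals of its share, and these overlap for every pair of non-layers. PKD2 was at 70.9, 66.8 and 99.96 CPM.

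**Figure D5:**
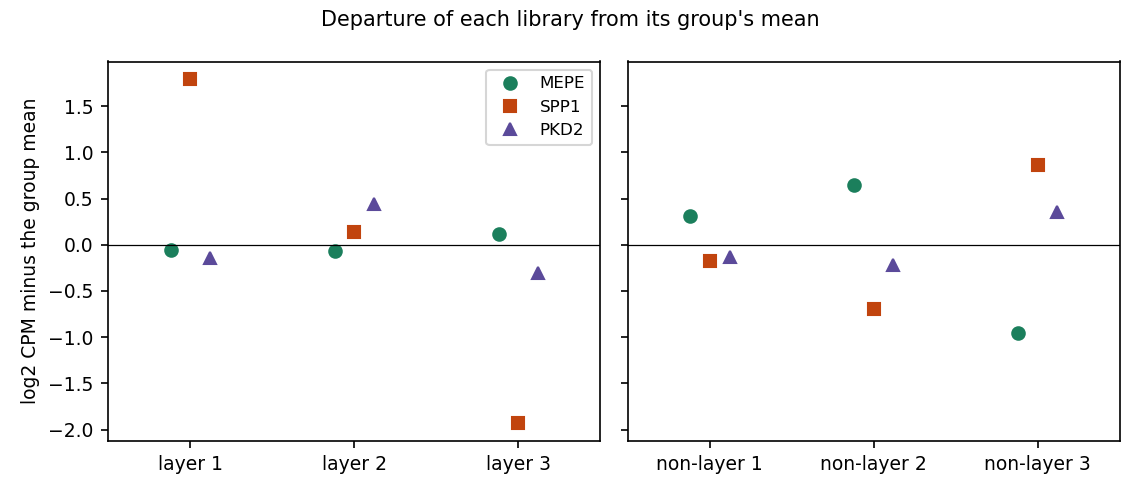
Log2 CPM of each library minus the mean of its group for MEPE, SPP1 and PKD2, with layers on the left and non-layers on the right. SPP1 departs from the mean of the layers by 1.80 in layer 1 and by -1.93 in layer 3, where MEPE departs by -0.06 and 0.12, and MEPE departs most, by -0.96, in non-layer 3.

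The order of the 3 genes by level per length was the same in all layers, but the distance between them was not. In RPKM, MEPE exceeded SPP1 by 11.97-fold in layer 1, 37.7-fold in layer 2 and 180-fold in layer 3. SPP1 in turn exceeded PKD2 by 30.1-fold, 6.35-fold and 2.54-fold in these layers. In the non-layers the order was another, with PKD2 the highest of the 3 genes at 24.2, 22.3 and 36.1 RPKM. MEPE followed at 14.0, 17.3 and 6.27 RPKM, so that PKD2 exceeded it by 1.73-fold, 1.29-fold and 5.76-fold. SPP1 was below 1 RPKM in each non-layer.

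These RPKM levels depend on the length that the authors used. Counts divided by RPKM and by the library's total count give that length. For each of the 381 genes of the deposited table with 1 transcript, it equals the exon length of the annotation to within 0.1%. For SPP1 it was 1301 bases, its exon length, and for PKD2 3254 bases in all 6 libraries, a little under the 3336 bases of exon. For MEPE it was 2388 bases in all layers, 2380 in non-layers 1 and 2 and 2328 in non-layer 3, although the exons of its 4 transcripts cover 4152 bases. With the exon length instead, the excess of MEPE over SPP1 would be 6.88-fold, 21.7-fold and 104-fold in layers 1, 2 and 3. MEPE remains the highest of the 3 genes in each layer by either length. Counts and CPM do not depend on it, and all 18 counts of the 3 genes are whole numbers.

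Genes with related roles could be counted only where the deposited table names them, which it does only for genes called by the authors. The counts of such lists are therefore fixed in part by that choice, and nothing is read from them about a list as a whole. Of a list of 20 SIBLING and bone mineral genes, 4 have a name, namely MEPE, SPP1, OSTN and STC2, and edgeR called 3 of them higher in layers (MEPE, SPP1 and OSTN) and 0 lower, beside 0.901% and 0.969% of all genes tested. OSTN (osteocrin), a secreted peptide of bone and muscle, rose 5.01-fold (adjusted p = 0.033 by edgeR). STC2 (stanniocalcin 2), a secreted glycoprotein, averaged 3.64 ± 1.47 CPM in layers against 1.07 ± 0.386 CPM in non-layers (SD, n = 3 each) and missed the threshold (adjusted p = 0.10 by edgeR). Of 9 genes for receptors of osteopontin (integrins and CD44), 0 have a name. A further list has 28 symbols, aliases included, for polycystins, TRP channels, calcium release channels and some other genes. On that list PKD2 is the only gene with a name.

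Of a list of 30 symbols of eggshell matrix genes, in which ovocalyxin-32 stands as RARRES1 and under an alias, 7 have a name. Of the 7 genes, edgeR called 4 higher in layers and 0 lower, again beside 0.901% and 0.969% of all genes tested. The 4 genes are MEPE, SPP1, LYZ (lysozyme, an antibacterial enzyme of egg white) and OVST (ovostatin, a protease inhibitor of egg white). LYZ rose 12.2-fold and OVST 5.84-fold, less than MEPE and SPP1. RARRES1 is known in the eggshell as ovocalyxin-32. It averaged 20223 ± 576 CPM in layers against 6662 ± 2353 CPM in non-layers (SD, n = 3 each; adjusted p = 0.050 by edgeR, not called). WFDC2, a secreted protein with a protease inhibitor fold, averaged 90.8 ± 72.0 CPM in layers against 23.0 ± 2.23 CPM in non-layers (SD, n = 3 each; adjusted p = 0.10 by edgeR, not called). OCX36, the gene of ovocalyxin-36, had the next largest ratio of the named matrix genes after SPP1 and MEPE, 50.01-fold, but missed the threshold (adjusted p = 0.053 by edgeR). Its range among the layers was 13.9-fold, at 4872, 16998 and 1220 CPM in layers 1, 2 and 3. Its highest layer was thus another hen than that of SPP1, and layer 3 was the lowest for both.

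Within 1 Mb of the 3 genes, the deposited table names 3 further genes. PRKG2, a protein kinase dependent on cGMP, lies 5.14 kb beyond PKD2 on the opposite strand. It had 536, 390 and 306 counts in layers 1, 2 and 3 and 15, 23 and 36 counts in non-layers 1, 2 and 3, and was called (19.2-fold, adjusted p = 0.016 by edgeR). Its order among the layers was that of SPP1, with a 1.85-fold range in place of 13.3-fold. AREG (amphiregulin, a growth factor) averaged 27.9 ± 18.6 CPM in layers against 4.03 ± 1.25 CPM in non-layers (SD, n = 3 each; adjusted p = 0.071 by edgeR). HPSE (heparanase, which cleaves heparan sulfate) was lower in each layer than in each non-layer, as were 15.1% of all genes tested, at 4.12 ± 1.11 against 12.4 ± 5.78 CPM (SD, n = 3 each; adjusted p = 0.094 by edgeR). Of these 3 named genes PRKG2 rose the most, but by less than MEPE and SPP1. They have a name because the authors had called them. IBSP and DMP1, on the other side of MEPE, could not be read, so nothing is said of the region as a whole.

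The pattern over the 6 libraries most like that of each gene was sought among 501 other named genes with a mean of at least 1 CPM, as the root mean square difference of log2 CPM profiles centred on their means. For MEPE the nearest were SPP1 (1.501), GNRHR (2.50) and OTOP2 (2.77), and for SPP1 they were MEPE (1.501), GNRHR (1.76) and OTOP2 (2.94). For PKD2 the nearest were VTN (0.15), CLDN10 (0.18) and PELI2 (0.19). These distances carry the difference between layers and non-layers as well as the spread within a group, so that genes with like fold changes lie close, and MEPE and SPP1 have the largest rises of all genes tested. The distances thus say nothing on whether 2 genes varied together among the layers. GNRHR was at 13.8, 7.44 and 1.18 CPM in layers 1, 2 and 3, an 11.7-fold range. This is the order of SPP1, which 20.8% of all genes tested shared. In non-layers 1, 2 and 3 GNRHR had 0, 0 and 1 counts. OTOP2 was in the reverse order among the layers, at 140, 254 and 309 CPM.

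Markers of other cell types could be read only in part. Of the 9 shell gland markers, 4 have a name under the symbol listed (MEPE, OCX36, ATP2B2 and OTOP2). For all 4 every layer lay above every non-layer, as for 12.1% of all genes tested. Ovocalyxin-32, also on this list, was listed under another symbol and is named as RARRES1. It averaged 20223 ± 576 CPM in layers against 6662 ± 2353 CPM in non-layers (SD, n = 3 each), again without overlap. All of these genes have a name because the authors had called them. Of 6 markers of the magnum, the part of the oviduct that secretes egg white, LYZ alone has a name, and it rose with MEPE and SPP1 between the groups (12.2-fold, adjusted p = 0.030 by edgeR). It was at 11.5, 30.7 and 21.5 CPM in layers 1, 2 and 3, lowest in the layer with most SPP1, and at 1.04, 2.51 and 1.62 CPM in non-layers 1, 2 and 3. Of 11 markers of macrophages and osteoclasts, which are known to express SPP1 in other tissues, CTSK is the only gene with a name, and it averaged 40.5 ± 5.81 CPM in layers against 108 ± 57.2 CPM in non-layers (SD, n = 3 each), opposite to SPP1 (adjusted p = 0.093 by edgeR). Its values in layers 1, 2 and 3 were 46.7, 39.7 and 35.2 CPM, which is the order of SPP1, shared by 20.8% of all genes tested. The genes TEKT1 and CFAP52, 2 of 8 markers of ciliated cells, were also in this order among the layers. TEKT1 was at 69.4, 51.6 and 31.1 CPM and CFAP52 at 44.3, 35.5 and 26.4 CPM. Between the groups they lay opposite to SPP1, every layer below every non-layer, as for 15.1% of all genes tested. TEKT1 averaged 119 ± 5.96 CPM in non-layers (SD, n = 3; adjusted p = 0.070 by edgeR) and CFAP52 averaged 81.4 ± 16.1 CPM (SD, n = 3; adjusted p = 0.054 by edgeR). The red blood cell gene HBBA, 1 of 7 such markers with a name, was highest in layer 3, at 386 CPM against 82.2 and 58.3 CPM in layers 1 and 2, and averaged 50.5 ± 5.64 CPM in non-layers (SD, n = 3; adjusted p = 0.20 by edgeR). Of 11 immune markers, CD3D alone has a name, at 6.89 ± 1.70 CPM in layers against 19.4 ± 9.37 CPM in non-layers (SD, n = 3 each; adjusted p = 0.093 by edgeR). For CTSK and CD3D every layer lay below every non-layer, as for 15.1% of all genes tested. For HBBA every layer lay above every non-layer, as for 12.1%. The 7 smooth muscle and 5 osteoblast markers have no named row. The part of these cell types in the levels of MEPE and SPP1 and in the spread of SPP1 was not tested.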

How the data were processed

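Single-end reads of poly-A RNA were cleaned by the authors with Prinseq, and alignment to Galgal 5.0 was carried out in Array Studio. The authors deposited estimated counts for each Ensembl gene, of which 91.46% are whole numbers. The gene counter, its strand setting and the annotation release are not given in the sources used here. The authors also deposited RPKM values, and a table of their own DESeq2 comparison with fold changes, p-values, q-values and group means. From that table only other columns were used, as deposited by the authors. These were gene names and descriptions, positions, strands, gene types, numbers of transcripts, exon lengths (in base pairs) and the mark "confounded".

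Estimated counts were rounded. edgeR 4.0.16 in R 4.3.3 was used with TMM normalization, filterByExpr and the quasi-likelihood test without covariates. Standard errors were obtained by dividing each log2 fold change by the root of its F statistic. Alternatives were DESeq2 1.42.0 and limma 3.58.1 on log2(RPKM + 1) or log2(RPKM + 0.1) with a minimum of 1 RPKM in 3 or more libraries. On log2(RPKM + 1), limma was also run without this minimum. Others were edgeR's robust fit, other scalings and filters, a block for the replicate number, and each library left out in turn. Python 3.11.15 with pandas 2.3.3 and scipy 1.17.1 was used otherwise. The tests were checked on simulated data with the same dispersion for all genes. There edgeR called 11 of 67 genes changed 2-fold, 59 of 60 changed 4-fold and 68 of 68 changed 8-fold. A 2-fold change lies at the threshold itself, and few such genes were called. The genes measured here differ in their spread, so these shares do not carry over to each gene. OCX36, at 50.01-fold, was not called (adjusted p = 0.053 by edgeR). Log2 CPM used a prior count of 0.5. No pair of libraries of a group agreed within sampling noise. The chi-square per gene was 13.97 for non-layers 1 and 2, the most alike pair, and 75.2 to 163 for the others.

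The genes and lists were chosen with earlier results of these data known. The genes named are the 3 genes, named genes of the deposited table within 1 Mb, members of the lists with a name, and the 3 nearest profiles of each gene. RefSeq's table matched 0 of the Ensembl identifiers, so its names were used by symbol only.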

Additional observations from a re-analysis of the deposited data

How the results depend on the processing

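The direction of MEPE, SPP1 and PKD2 was the same in every alternative that gave a value. SPP1 has no value with a minimum of 10 counts in every library, since 2 non-layers had fewer. The number of genes called by edgeR was 249, and 781 with library size only. DESeq2 called 928, and limma on RPKM called 604 and 662 with a pseudocount of 1 and 0.1. Without the minimum of 1 RPKM, limma with a pseudocount of 1 called 258. With each library left out, the number called by edgeR ranged from 0 to 274. It was 41 without layer 1, 2 without layer 2 and 1 without non-layer 2. Without non-layer 1 it was 0, and 1704 genes had an unadjusted p under 0.05 by edgeR. Non-layers 1 and 2 were the most alike pair of libraries within a group. With library size only, the median over all genes of the log2 fold change moved from 0.01 to -0.33. That of PKD2 was 0.98 there, which is under 2-fold, and 1.31 relative to the median. By limma on RPKM the log2 fold change of PKD2 was 0.95 with a pseudocount of 1 and 0.98 with 0.1, also under 2-fold. PKD2 was called with the relaxed filter (log2 fold change 1.34) and by DESeq2 (1.36). With each library left out, the log2 fold change ranged from 10.49 to 11.17 for MEPE, from 9.79 to 11.64 for SPP1 and from 1.07 to 1.53 for PKD2. With exon lengths, the mean ratio of MEPE to PKD2 in layers was 208 in place of 352 by the deposited RPKM, since the exon length is 1.74 times the length used for MEPE and 1.03 times that for PKD2. TMM factors computed without MEPE left the log2 fold changes at 10.83, 11.03 and 1.33.

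With the replicate number as a block, 21 genes were called, MEPE was called (log2 fold change 10.96, adjusted p = 0.029 by edgeR) and SPP1 was not (10.40, adjusted p = 0.061 by edgeR). The labels do not say that a number pairs hens. Deviations of layers and non-layers with the same number correlated at -0.13, 0.11 and -0.06, and those with different numbers at -0.14 to 0.19. With so few hens, these values cannot show whether hens with the same number share more than the number. The precision of SPP1 in non-layers is limited by counts of 5 to 15.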
